A study of Homo sapiens with 8 samples.

Results

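ZBTB48 (also called TZAP), a zinc finger protein, and 4 genes that the study counts among its targets, MTFP1, SNX15, VWA5A and PXMP2, were examined in maps of open chromatin. The 5 genes were chosen by name, out of 19970 protein-coding genes of GENCODE 44, and every peak in a gene body or within 10 kb of it was taken. This gave 57 of 195897 peaks, which overlapped into 9 of 52105 regions. The maps were made by FAIRE-seq, in which nucleosome-free DNA is recovered from fixed chromatin and sequenced, so that a peak marks open chromatin. The cells were U2OS, a human osteosarcoma line, as 2 wild-type (WT) clones, WT_4 and WT_5, and 2 ZBTB48 knockout (KO) clones, KO_C5 and KO_D2. Each clone gave 1 untreated library and 1 library treated with 250 U/ml interferon gamma (IFNγ) for 24 hours according to the labels, although a longer treatment is named in the paper. The replicate for the genotype is therefore the clone (n = 2 per genotype), and each genotype is a pair of clones whose own differences cannot be told apart from those of the genotype where they coincide. Peak lists carry no sequence of the edited site and no transcript level, so they do not check the knockout.

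Zinc finger proteins such as ZBTB48 recognise short DNA motifs through their finger domains. ZBTB48 is known both at chromosome ends and as an activator of transcription. MTFP1 is an inner mitochondrial membrane protein involved in mitochondrial division, SNX15 is a sorting nexin of the endosomal pathway, PXMP2 is a channel-forming protein of the peroxisomal membrane and VWA5A is a protein with a von Willebrand factor A domain. Active promoters usually hold a nucleosome-free stretch just upstream of the transcription start site (TSS), where transcription factors and the polymerase assemble. A difference in FAIRE signal there is a difference in openness and does not by itself give the level of the transcript.

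The promoter sequences are shown first, as a reference for peak position. They are the RefSeq promoter windows (GRCh38.p14, plus strand), cut to the part upstream of the first annotated TSS and free of annotated exons, and 4 of the 5 genes had an entry in that table. VWA5A had none. In the ZBTB48 promoter (chr1:6579756-6579993) and the PXMP2 promoter (chr12:132687377-132687586) the capitals mark the span that held the summits of all 8 lists. In the SNX15 promoter (chr11:65027189-65027317) they mark the exon-free part of the stretch that lay in every WT peak and in no KO peak. The MTFP1 stretch (chr22:30425518-30425622) ends upstream of the summits and has no capitals.
ZBTB48: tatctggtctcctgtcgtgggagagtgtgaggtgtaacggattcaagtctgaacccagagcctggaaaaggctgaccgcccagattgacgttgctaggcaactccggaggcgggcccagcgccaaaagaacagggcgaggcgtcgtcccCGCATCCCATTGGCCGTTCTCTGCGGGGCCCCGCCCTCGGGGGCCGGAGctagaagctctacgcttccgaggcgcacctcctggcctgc
PXMP2: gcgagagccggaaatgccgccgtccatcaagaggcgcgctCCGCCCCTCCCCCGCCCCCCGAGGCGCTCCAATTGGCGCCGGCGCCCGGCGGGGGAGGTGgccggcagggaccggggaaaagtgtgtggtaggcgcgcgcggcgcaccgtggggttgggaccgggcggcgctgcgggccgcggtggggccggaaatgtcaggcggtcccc
SNX15: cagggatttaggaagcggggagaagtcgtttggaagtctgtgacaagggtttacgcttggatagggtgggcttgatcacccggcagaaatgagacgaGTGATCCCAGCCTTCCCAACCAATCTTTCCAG
MTFP1: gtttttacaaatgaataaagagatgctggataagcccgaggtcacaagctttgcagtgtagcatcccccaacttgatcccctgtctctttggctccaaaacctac

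The hexamer TTAGGG, the telomere repeat that ZBTB48 binds, was searched on both strands of the 250 bp upstream of the RefSeq start, together with GGGGG and the TATA sequence TATAAA. The telomere hexamer was in 0 of the 4 promoters, against 7.84% of 15315 protein-coding promoters of the same length, and the TATA sequence was in 0 of 4, against 9.24%. The G run was in ZBTB48, MTFP1 and PXMP2, against 62.9% of promoters. Inside the summit span of ZBTB48 it lay at −51 to −47 bp from the TSS. The PXMP2 summit span held it 4 times, of which 2 overlapped. Of the 4 promoters PXMP2 was the richest in G and C (74.8%, above 86.2% of promoters) and MTFP1 the poorest (53.2%, above 24.7%). These matches describe the letters of the windows only. In the paper ZBTB48 also bound a promoter sequence that holds GGG but not the telomere hexamer. The lack of that hexamer therefore does not show that the promoters lack a ZBTB48 site.

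Each gene's promoter peak was taken as the strongest peak within 500 bp of any of its annotated TSSs. Because lists differed in length (16730 to 37533 peaks), its strength was ranked as a percentile of −log10 p within its own list, where 100 is the strongest peak and a library without a peak was given 0. The 5 genes fell into 3 patterns. ZBTB48, SNX15 and PXMP2 had a promoter peak in all 8 lists, MTFP1 in 3 of 4 WT and 0 of 4 KO lists, and VWA5A in 1 WT list. In the plot of percentiles by library, SNX15 and PXMP2 ranked higher in every WT library than in any KO library, while ZBTB48 did not separate.

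**Figure D1:**
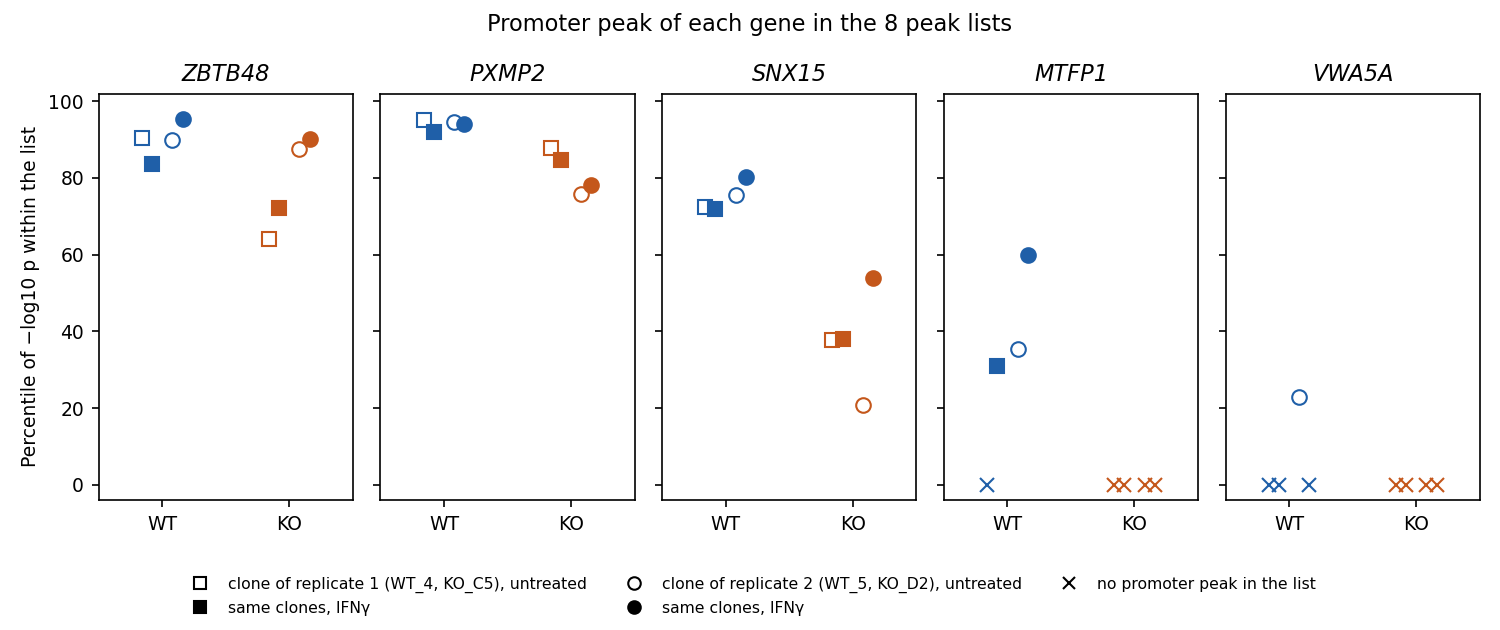
Percentile of −log10 p of the promoter peak within each list (y axis, 0 to 100) for WT and KO libraries of the 5 genes; squares and circles are the clones of replicates 1 and 2, filled symbols are IFNγ libraries and crosses mark lists with no promoter peak. SNX15 ranked between 71.8 and 80.1 in WT and between 20.7 and 54.0 in KO, and MTFP1 had a peak in 3 WT lists and in no KO list.

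SNX15 (ENSG00000110025.13, chromosome 11, 65027439 to 65040572, plus strand) had the widest difference in percentile of the 5 genes over all 8 libraries. MTFP1 differed by more without untreated WT_4 (39.3 against 37.1 points) and without untreated KO_D2 (31.5 against 29.0 points). The SNX15 promoter peak ranked at percentiles of 72.5 and 75.4 in untreated WT_4 and WT_5 and at 71.8 and 80.1 in the same clones after IFNγ. In the KO clones it ranked at 37.7 and 20.7 in untreated KO_C5 and KO_D2 and at 38.1 and 54.0 after IFNγ. The genotypes did not overlap. WT clones averaged 74.9 ± 3.98 and KO clones 37.6 ± 0.410 (SD of 2 clone means), a difference of 37.3 percentile points. With 4 clones there are 6 ways to assign the genotypes, and the exact permutation test gave a two-sided p = 0.333, the smallest that this design allows.

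Such separation is not rare in these lists. Of 10217 protein-coding genes with a promoter peak in all 8 lists, 6.78% had every WT percentile above every KO percentile and 0.294% had the reverse, as against 7.13% for WT above KO among the 11551 regions of any kind found in all 8 lists. The median difference over the 10217 genes was 3.54 points in favour of WT. SNX15 and PXMP2 were therefore 2 of 693 genes with that order. The size at SNX15 was less common: 6 genes, or 0.0587%, differed by at least as much, SNX15 included. In the distribution over all promoters, SNX15 lay far in the upper tail and ZBTB48 and PXMP2 on its shoulder.

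**Figure D2:**
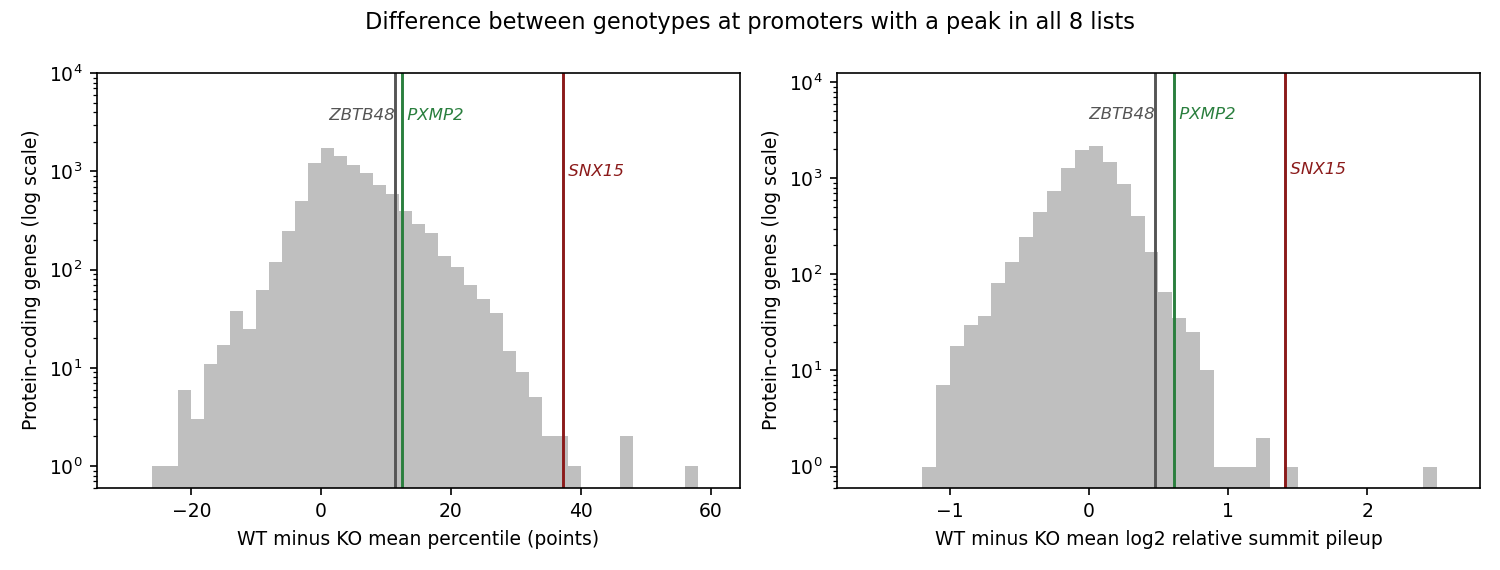
Number of protein-coding genes with a promoter peak in all 8 lists (y axis, log scale) by the WT minus KO difference in mean percentile (left) and in mean log2 relative summit pileup (right); vertical lines mark 3 genes. SNX15 lies at 37.3 points and at 1.41 on the log2 scale, against medians of 3.54 and 0.0052.

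The rank of a peak depends on its local background as well as on its height, and backgrounds differed between genotypes. From fold enrichment and −log10 p, the number of fragments at each summit and the local background were solved under the caller's Poisson formula. At the 11551 regions found in all 8 lists the median local background was 1.64 to 1.73 times the lowest background of the library in WT and 2.98 to 3.10 times in KO. At 58.8% of the 10217 promoters every KO background was above every WT background. Fold enrichment, the summit over this background after the caller adds 1 to each, was 20.3 to 29.0 in WT and 6.71 to 11.2 in KO at SNX15, 48.3 to 99.1 and 20.4 to 41.1 at PXMP2, and 38.1 to 78.6 and 17.5 to 34.7 at ZBTB48. None of the 3 overlapped, but neither did 23.6% of the 10217 promoters, with WT higher. The summit pileup was therefore also divided by the library's median summit pileup at the shared regions. This leaves out the division by local background, but no background was subtracted from either pileup.

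By this relative pileup SNX15 stood at 1.10, 0.889, 1.22 and 0.919 in the WT libraries (WT_4, WT_5, WT_4 with IFNγ, WT_5 with IFNγ) and at 0.422, 0.377, 0.280 and 0.493 in the KO libraries in the same order (KO_C5, KO_D2, KO_C5 with IFNγ, KO_D2 with IFNγ). The groups again did not overlap, and the geometric mean was 2.65 times higher in WT (2.09 to 3.36 over the 4 pairs of clones). In KO_C5 and KO_D2 with IFNγ the summit lay at 368 and 356 bp from the TSS, so their values were not taken at the start. The arithmetic clone means differed by 0.637 between genotypes (exact permutation p = 0.333). Of the 10217 promoters 0.734% had every WT relative pileup above every KO relative pileup, and of the 11551 shared regions of any kind 0.779%. On the log2 scale the SNX15 difference was 1.41, and 1 other gene, BDH1, a gene picked out after its value was seen, had a larger one. SNX15 had a local background of 1.64 to 2.21 fragments in WT lists and of 1.96 to 2.43 in KO lists, so that the genotypes overlapped in it.

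The SNX15 peaks also differed in where they began. WT peaks started between −195 and −153 bp from the TSS and KO peaks between −116 and −64 bp, without overlap, while their ends overlapped (329 to 513 bp and 421 to 522 bp). The stretch from −153 to −117 bp was in every WT peak and in no KO peak, and 32 of its bases are the capitals in the SNX15 sequence above. An upstream edge further out in every WT list than in any KO list was found at 6.49% of the 10217 promoters. The WT peaks were also the higher ones, and the part of height in this difference was not tested. Widths overlapped, at 506 to 709 bp in WT and 486 to 639 bp in KO. The summit was within −1 to 51 bp of the TSS in the 4 WT and the 2 untreated KO libraries, over the first exon in 5 of them and 1 bp upstream of it in untreated WT_5. In the IFNγ libraries of KO_C5 and KO_D2 it was at 368 and 356 bp, past the end of the first exon of the canonical transcript at 197 bp and thus in its first intron.

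**Figure D3:**
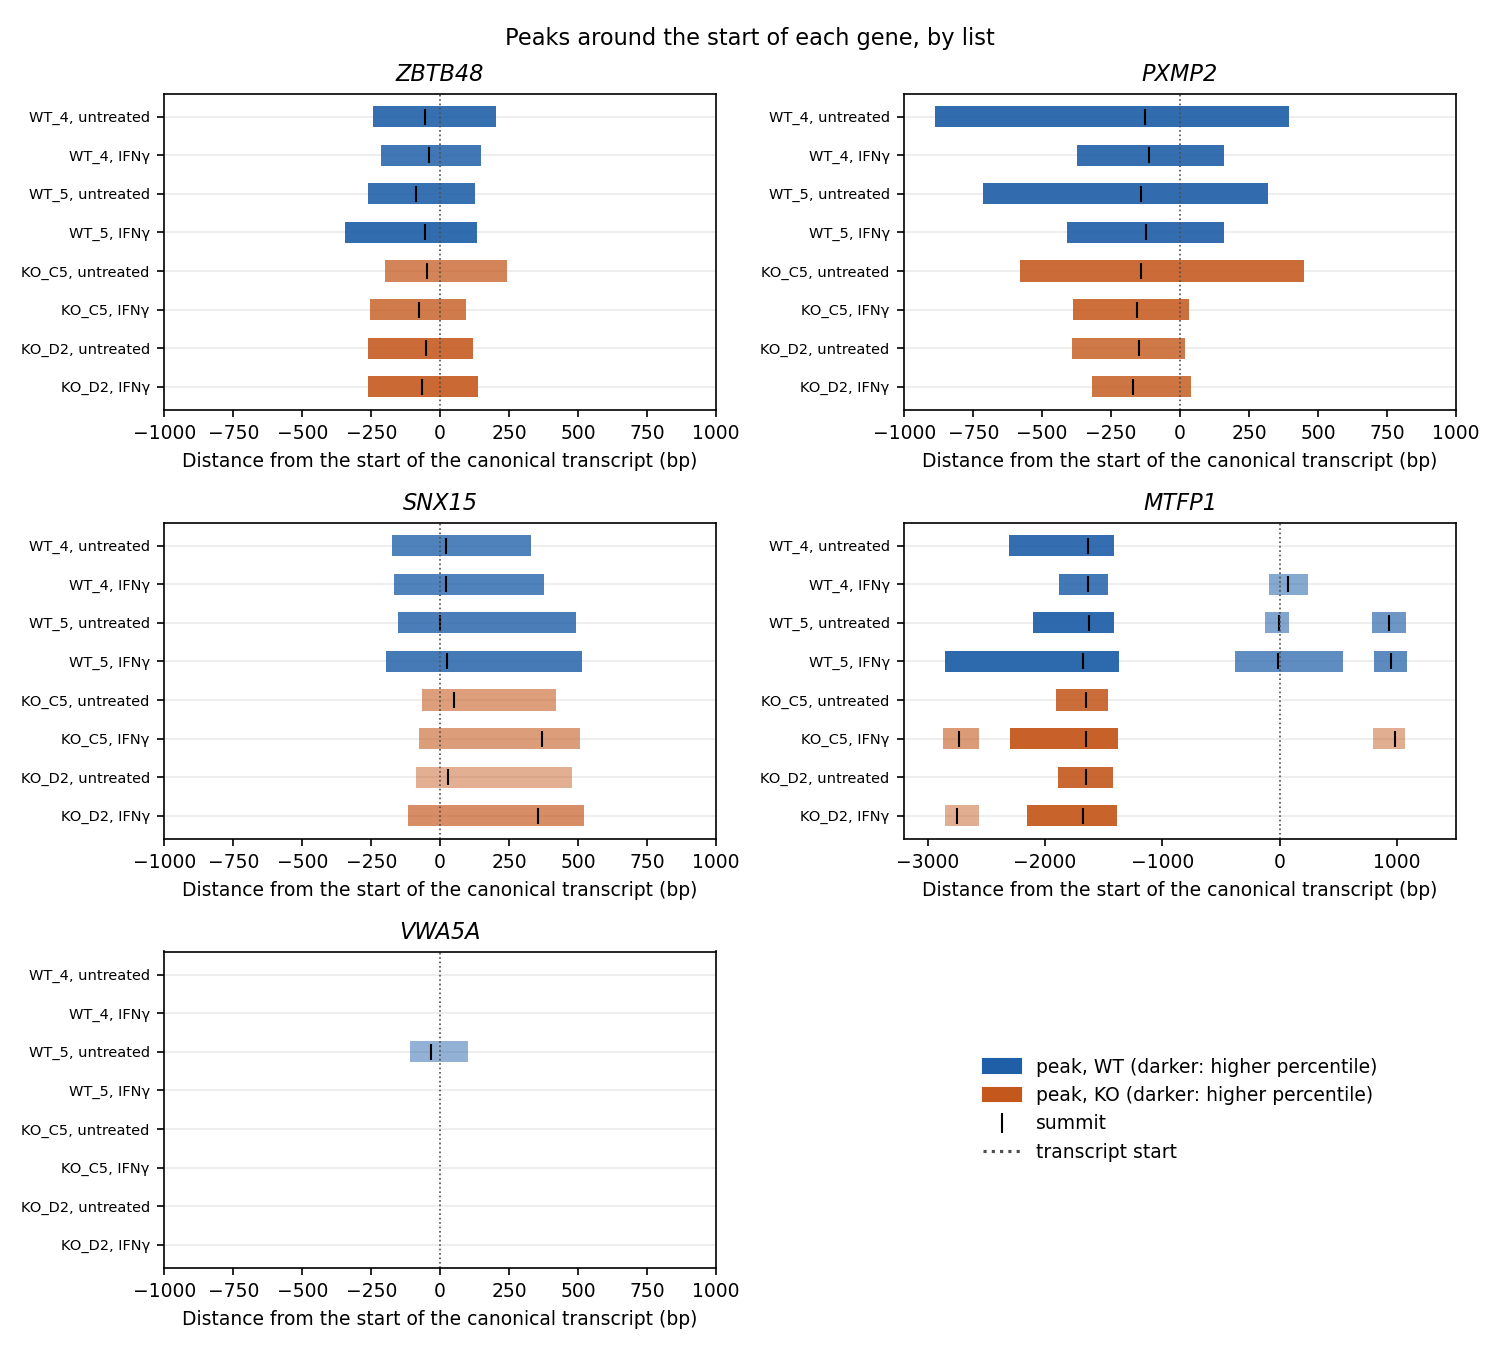
Extent of each peak (bars) and its summit (black tick) by list, in bp from the start of the canonical transcript; blue is WT, orange is KO and darker bars have a higher percentile. SNX15 peaks start further upstream in the 4 WT lists, and MTFP1 has a strong upstream peak in all 8 lists but a peak at its start in 3 WT lists only.

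The only other region near SNX15 was the promoter of its downstream neighbour SAC3D1, whose summits lay at 13566 to 13685 bp. It had a peak in all 8 lists, with percentiles of 85.2 to 93.1 in WT and 64.6 to 89.2 in KO, which overlapped. Its relative pileup was 1.5 to 1.71 in WT and 1.15 to 1.77 in KO. The nearest start of the upstream neighbour ARL2 is at −5923 bp, and it had no separate region within the window. ARL2 did have a promoter peak in all 8 lists, at a start outside the window, with mean percentiles of 77.1 in WT and 72.3 in KO. A read-through transcript, ARL2-SNX15, has an exon over the SNX15 start, but no start of another gene lay within 500 bp of the SNX15 promoter region. The promoter peak taken for ARL2-SNX15 had the same mean percentiles as that of ARL2.

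MTFP1 (ENSG00000242114.6, chromosome 22, 30425623 to 30429054, plus strand) had a promoter peak in WT libraries alone. It was in untreated WT_5 with a fold enrichment of 6.11 (percentile 35.4), in WT_4 with IFNγ at 7.23 (31.0) and in WT_5 with IFNγ at 12.0 (59.8), and absent in untreated WT_4 and in all 4 KO libraries. These are weak to middling peaks of their lists. WT clones averaged a percentile of 31.5 ± 22.7 (SD of 2 clone means) against 0 for KO clones, and the exact permutation p was 0.333 for the percentile and for the number of libraries. Without the IFNγ library of WT_4, p rose to 1, because WT_4 then had no peak. With the promoter taken as 1 kb either side of a TSS, the peak in the gene body counted as well, and KO_C5 with IFNγ then had 1 (percentile 21.4; exact permutation p = 0.667 for the number of libraries). A promoter peak in at least 3 WT and 0 KO lists was found at 1.07% of the 14428 genes with a promoter peak in any list, and the reverse at 0 of them.

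**Figure D4:**
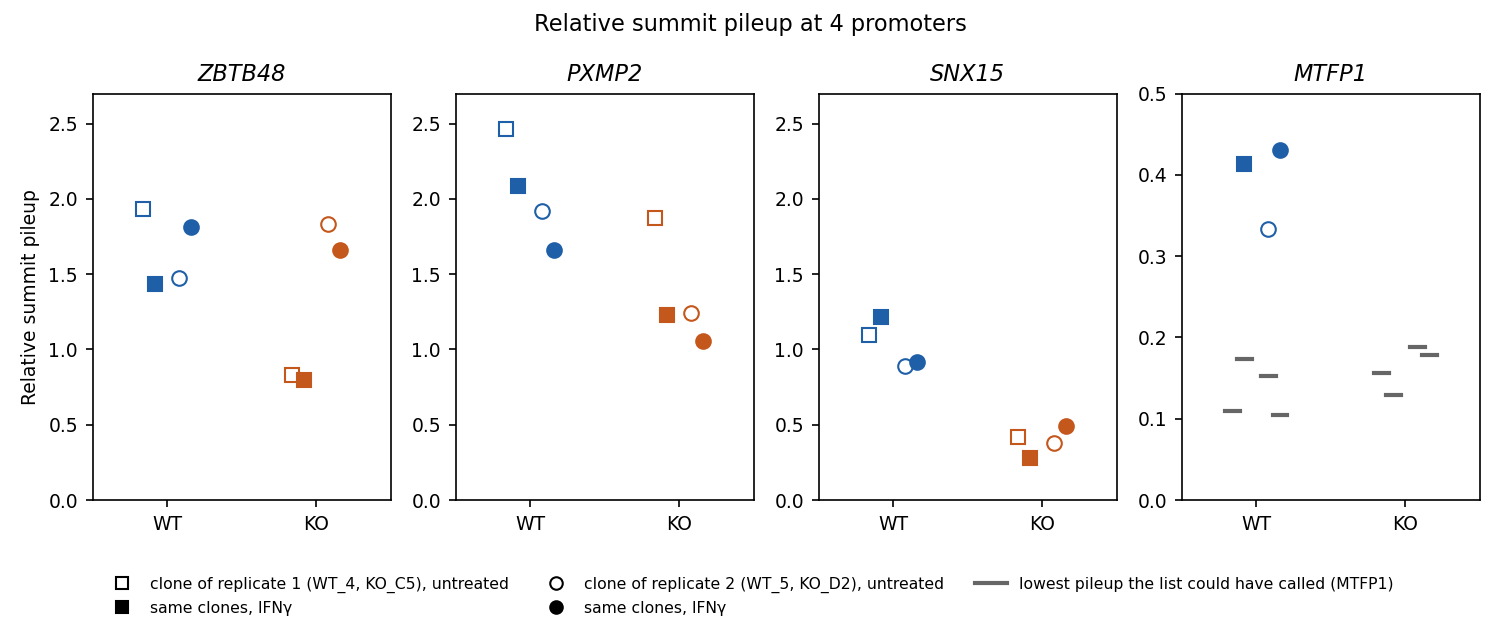
Summit pileup divided by the library's median summit pileup at shared regions (y axis) in WT and KO libraries; for MTFP1, grey bars give the lowest pileup that each list could have called. SNX15 was 0.889 to 1.22 in WT and 0.280 to 0.493 in KO, PXMP2 and ZBTB48 overlapped between genotypes, and the 3 MTFP1 peaks were above the callable limit.

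Whether an MTFP1 peak of WT size could have been seen in the other lists was judged from the local background of the strong peak upstream of it, which was equal to that at the promoter, to 3 digits, in the 3 lists with both peaks. At that background the lowest pileup a list could call was 8 fragments in untreated WT_4, 10 in untreated KO_C5, 10 in untreated KO_D2, 12 in KO_C5 with IFNγ and 13 in KO_D2 with IFNγ, if the stretch was also long enough for the caller. The 3 peaks found had 24, 19 and 37 fragments. Relative to the shared regions, the callable limit was at most 0.189 in the lists without a peak, and the peaks found were at 0.333 to 0.430. If the upstream background held at the promoter, that relative size lay above the limit in the KO lists and in untreated WT_4, which also had no peak. Whether it held in the lists without a promoter peak was not tested. At the peak in the gene body the background was 3.01 fragments in KO_C5 with IFNγ, against 3.65 at the upstream peak. In untreated WT_5 it was 3.31 against 3.09. Openness below the limit was not detectable at this depth.

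The study's own qPCR amplicon for this promoter can be placed in the same coordinates by exact match of its primers, each of which matched 1 place on chromosome 22 of GRCh38.
MTFP1 forward primer: tcagtcctgggagcgattag
MTFP1 reverse primer: cgaaggacaggtcaggaaat
The amplicon spans chr22:30425625-30425772, or −143 to 4 bp from the start of the canonical transcript. A peak overlapped it in 3 lists, the same WT lists as above, and covered it from end to end in 1, WT_5 with IFNγ.

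The other regions at MTFP1 behaved differently. A peak with its summit between −1681 and −1627 bp was in all 8 lists, in an exon of the upstream gene SEC14L2 and outside its coding part. It was one of the stronger peaks of each list, at percentiles of 82.4 to 97.9 in WT and 86.5 to 98.4 in KO. Its relative pileup was 1.70 to 2.68 in WT and 1.95 to 2.81 in KO, so this neighbour did not follow the order seen at the MTFP1 start. Further upstream, a weak separate peak with summits at −2737 and −2748 bp was listed in KO_C5 and KO_D2 after IFNγ, at percentiles of 41.0 and 21.9, and the wide upstream peak of WT_5 with IFNγ reached over the same place. In the gene body, a peak with its summit at 930 to 978 bp, by the second exon, was listed in both WT_5 libraries (percentiles 49.4 and 62.2) and in KO_C5 with IFNγ (21.4). A read-through gene without a symbol, ENSG00000249590, spans SEC14L2 and MTFP1.

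PXMP2 (ENSG00000176894.10, chromosome 12, 132687587 to 132704985, plus strand) had a strong promoter peak in all lists. The WT percentiles were 95.1 and 94.6 in untreated WT_4 and WT_5 and 91.9 and 94.1 after IFNγ, and the KO percentiles were 87.7 and 75.8 in untreated KO_C5 and KO_D2 and 84.6 and 78.1 after IFNγ. Every WT library ranked above every KO library, with clone averages of 93.9 ± 0.601 and 81.5 ± 6.52 (SD of 2 clone means) that differed by 12.4 points (exact permutation p = 0.333). A difference of at least this size was found at 12.4% of the 10217 promoters, and of 2283 genes within 5 points of the mean percentile of PXMP2 5.96% had the same order.

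The height of the PXMP2 peak separated the genotypes less well. The relative pileup was 2.47, 1.92, 2.09 and 1.66 in WT and 1.88, 1.25, 1.23 and 1.05 in KO, in the order given for SNX15. Untreated KO_C5 lay above WT_5 with IFNγ, so that the groups overlapped by 1 library, and the geometric mean was 1.53 times higher in WT (1.18 to 1.98 over pairs of clones). Local background at this peak ranged from 0.826 to 1.32 fragments in WT lists and from 1.68 to 2.83 in KO lists, without overlap, and its part in the percentiles was not tested. This peak cannot be assigned to PXMP2 alone. The DNA polymerase epsilon gene POLE starts on the opposite strand at −211 bp, and the summits (−170 to −111 bp) lay between the 2 starts in all 8 lists, as the capitals in the PXMP2 sequence show. Width varied from 360 to 1284 bp with no separation of the genotypes. The PGAM5 promoter, with summits at 23168 to 23218 bp, was in all 8 lists and overlapped between WT (65.0 to 82.9) and KO (68.2 to 82.1) in percentile and in relative pileup (0.913 to 1.45 and 0.904 to 1.52).

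ZBTB48 itself (ENSG00000204859.13, chromosome 1, 6579994 to 6589280, plus strand) kept an open promoter in the KO clones. The percentiles were 90.5 and 89.8 in untreated WT_4 and WT_5, 83.7 and 95.3 after IFNγ, 64.0 and 87.5 in untreated KO_C5 and KO_D2, and 72.2 and 90.1 after IFNγ. Both KO_C5 libraries were the lowest of the 8, an order found at 5.02% of the 10217 promoters, whereas both KO_D2 percentiles lay within the WT range. Fold enrichment, given above, was lower in both KO clones. WT clones averaged 89.8 ± 3.82 and KO clones 78.4 ± 14.6 (SD of 2 clone means; exact permutation p = 0.667). This test cannot go below 0.333 with so few clones, so it does not show that the genotypes were alike. By relative pileup KO_C5 was again the lowest, at 0.828 and 0.796 in KO_C5, 1.83 and 1.66 in KO_D2 and 1.43 to 1.93 in WT. Summits stayed within −89 to −41 bp, and this was the only region in the window, which also holds the start of the taste receptor gene TAS1R1.

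VWA5A (ENSG00000110002.16, chromosome 11, 124115404 to 124147721, plus strand) had 1 peak in 1 list. It was in untreated WT_5, 213 bp wide, with its summit at −34 bp, 12 fragments at the summit and a fold enrichment of 6.42 (percentile 22.8). The window of 52318 bp held no other peak in any list. At the lowest background of each library 5 or 6 fragments would have sufficed for a call. A peak in that list alone was found at 0.499% of the 14428 promoters, and the comparison by genotype gave an exact permutation p = 1.

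No difference between IFNγ and untreated libraries at the 5 promoters passed the test. A higher percentile after IFNγ in all 4 clones was seen at 16.3% of the 10217 promoters and at 0 of the 3 members among them. The treated minus untreated difference in mean percentile (n = 4 libraries each) was 13.9 points at MTFP1, 9.41 at SNX15, 2.37 at ZBTB48, −1.10 at PXMP2 and −5.71 at VWA5A. The exact permutation test over 70 assignments, which can reach p = 0.0286, gave p between 0.6 and 1. Paired by clone, the smallest p was 0.375, where 0.125 is the lowest possible. SNX15 changed by −0.735 and 4.69 points in WT_4 and WT_5 and by 0.402 and 33.3 points in KO_C5 and KO_D2, and without untreated KO_D2 the mean difference was −0.884 points. The SNX15 summits of KO_C5 and KO_D2 lay at 51 and 28 bp untreated and at 368 and 356 bp after IFNγ. The changes in these clones therefore compare different positions within the peak. At MTFP1 the peak appeared in WT_4 and rose from the percentile of 35.4 to 59.8 in WT_5, and stayed absent in both KO clones. The IFNγ change in WT minus that in KO was 27.7 points there (exact permutation p = 0.333, the smallest possible), and p was between 0.667 and 1 at the other 4 genes. CIITA, the MHC class II transactivator, an IFNγ-induced gene, had a promoter peak in 4 of 4 IFNγ libraries, 2 of them WT and 2 KO, and in 0 of 4 untreated ones. Its percentiles were 22.7 to 55.0 in WT and 19.7 to 23.4 in KO. Any annotated CIITA start counted, so its separate promoters were not told apart. The study's comparison of genotypes concerns the CIITA promoter pIII, which was not examined alone here.

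The genes related to the 5 by function were examined in the same way. Of 43 such genes, 41 had a promoter peak in at least 1 list and 37 in all 8, beside 72.2% and 51.2% of all protein-coding genes. Among the 37, 4 ranked higher in every WT than in every KO library and 0 showed the reverse. That is 10.8%, beside 6.78% of all promoters, and the median difference was 2.33 points, beside 3.54. Of the 15 sorting nexins with a peak in all lists, 3 had that order. At SNX9, which acts in endocytosis, the percentiles were 54.4 to 72.4 in WT and 43.7 to 53.0 in KO. At SNX13 they were 91.5 to 96.4 and 83.6 to 91.1, and at SNX18 93.9 to 96.0 and 88.4 to 92.9. The differences at these 3 nexins, 13.5, 6.73 and 4.05 points, were smaller in value than the 37.3 points at SNX15.

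The VWA5A relative VWA5B2 was the other gene with that order, at 78.7 to 88.9 in WT and 54.8 to 74.2 in KO, while VWA5B1 had no promoter peak in any list. None of the 8 genes of mitochondrial division and fusion related to MTFP1 (DNM1L, FIS1, MFF, MIEF1, MIEF2, MFN1, MFN2 and OPA1) separated, with differences of −1.83 to 7.20 points, and all 8 had a peak in every list. Of 9 genes of the peroxisomal membrane, 5 had a peak in all lists and 0 separated. All 8 genes of telomere-binding proteins, among them TERF1, TERF2 and POT1 of the shelterin complex, had a peak in every list. None of them separated, and their differences were −14.1 to 4.93 points. A peak in at least 3 WT and 0 KO lists, the pattern of MTFP1, was found at 0 of the 43 genes, beside 1.07% of the 14428 genes with a promoter peak in any list. The order in rank was found at 6.78% of all promoters. With shares this low, a count of 0 among so few genes does not set these lists apart from all genes.

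The labelled cell type was checked by promoter peaks. Of 10 markers of osteoblasts and mesenchyme, 9 had a promoter peak in at least 1 list and 3 in all 8, beside the 72.2% and 51.2% of all genes. RUNX2, with a peak in all 8, ranked at percentiles of 2.56 to 40.4, TWIST1 had a peak in 1 list, BGLAP in 2, ALPL in 4 and SPARC in 5, and COL1A2 had none, so that these markers were not open throughout. Among markers of other cell types, EPCAM had a peak in all 8 lists, and the leukocyte gene PTPRC, CD3E, CD79A, CDH1, ALB and PECAM1 had none.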

How the data were processed

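FAIRE-seq libraries were sequenced as paired ends by the study. Per the methods and the submitters' processing notes, the authors trimmed reads with Trimmomatic, aligned them to GRCh38 with Bowtie2 2.2.5, filtered them by mapping quality with SAMtools 1.14 and called peaks in each library with MACS2 2.2.7.1. Whether input DNA was the control in peak calling is not given in the sources used here. Of the deposited columns, fold enrichment is the ratio of summit pileup to local background after 1 was added to each, and −log10 p and −log10 q, also deposited, are the caller's. The lists give no read counts, and pileups stand in for depth. Ranges and SDs give the spread between clones or libraries only.

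Peaks on chromosomes 1 to 22 and X were used. Peak ends were compared with the chromosome lengths of the GRCh38 reference, and 0 lay beyond them. Percentiles of −log10 p were mid-ranks within a list. Peaks of different lists that overlapped by 1 bp were joined into regions. Promoters were 500 bp either side of any GENCODE 44 TSS, and distances were taken from the canonical transcript. Summit pileup and background were solved for whole fragments, and over 99.9% of peaks in each list matched the listed −log10 p within 0.01. Genotype was tested over the 6 assignments of clone means and IFNγ over the 70 assignments of libraries, all two-sided and exact, for 5 members per comparison and unadjusted. With 2 clones per genotype no genotype test can reach 0.05. The genes named are the 5 members, neighbours with a TSS in a window, and lists of related genes and markers, of which some single genes are not reported here. The members and lists were chosen with earlier results of these data known. By the labels each clone gave an untreated and an IFNγ library, which pairs these, and over the promoters found in all lists the difference between clones correlated between untreated and IFNγ libraries (r = 0.636 in WT and 0.420 in KO). Alternatives were other ranks, list lengths, thresholds, promoter windows, flanks and overlaps, relative pileup, the replicate block and the omission of each library. Python 3.11.15, scipy 1.17.1 and pandas 2.3.3 were used, and the code was tested on simulated lists.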

Additional observations from a re-analysis of the deposited data

How the results depend on the processing

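Values are WT minus KO, or IFNγ minus untreated, in percentile points unless stated. Of 384 results under alternatives, 340 kept direction and, for counts and shares, stayed within 1.5 times. The percentile difference by genotype kept its direction for ZBTB48, MTFP1, SNX15 and PXMP2 under every alternative run, although with a 1 kb promoter window MTFP1 also had a peak in 1 KO list. No genotype test can pass a threshold with 4 clones, so their p values say nothing about stability. The lists show peaks that passed a caller, so openness below the callable pileup is not seen.

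With lists cut to equal length, SNX15 lost its peak in KO_C5 with IFNγ (25 percentage points more WT than KO libraries with a peak) and VWA5A lost its 1 peak (0 for both genotype measures). MTFP1 kept its peak in 2 WT lists there, with a difference of 7.95. In that setting the share of promoters with every WT percentile above every KO percentile was 1.90% and that of promoters with a peak in at least 3 WT and 0 KO lists 0.249%. The first share was 13.2% by percentile of fold enrichment and 0.734% by relative summit pileup.

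IFNγ differences, none past the threshold, changed sign as follows. With lists of equal length they were −1.23 at ZBTB48 and −3.61 at SNX15, and the IFNγ change in WT minus KO was 3.96 at ZBTB48, 9.81 at SNX15 and 6.51 at PXMP2. By relative pileup, in units of that ratio, the IFNγ difference at ZBTB48 was −0.0900 and the change in WT minus KO was 0.0250 at ZBTB48, 0.0889 at SNX15 and 0.104 at PXMP2. Ranked among promoter peaks alone, it was 3.71 at PXMP2. The cause of these changes was not tested.

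With each library left out in turn, the genotype difference ranged from 29.0 to 45.6 at SNX15, 11.6 to 13.2 at PXMP2, 9.34 to 13.4 at ZBTB48, 23.8 to 39.3 at MTFP1 and 0 to 11.4 at VWA5A. Without untreated WT_5 the only VWA5A peak is gone, and the difference in libraries with a peak ranged from 0 to 50 percentage points there. The IFNγ difference ranged from −3.94 to 6.75 at ZBTB48, −0.884 to 17.4 at SNX15 (negative without untreated KO_D2), −5.27 to 1.94 at PXMP2 and 1.49 (without WT_5 with IFNγ) to 22.7 (without untreated WT_5) at MTFP1. The IFNγ change in WT minus KO ranged from −12.2 to 0.192 at ZBTB48, −31.3 to 1.58 at SNX15 (positive without either KO_D2 library) and −4.09 to 1.32 at PXMP2. The share with every WT percentile above every KO percentile ranged from 7.25% to 15.0% (highest without WT_4 with IFNγ) and the share with a peak in most WT and 0 KO lists from 1.19% to 2.57% (highest without the same library), where 2 of 3 WT lists sufficed once 1 was left out.

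With the replicate number as a block, the genotype difference at SNX15 was still 37.3, with an exact p = 0.5, the smallest that 4 sign changes allow, and no call changed. Across genotypes the labels name different clones under the same number. The differences between same-numbered clones correlated at 0.416 in untreated and −0.155 in IFNγ libraries. The first value is close to the 0.420 of the same KO clones, so whether the number marks a pairing was not settled. The number of regions in the 5 windows stayed within 1.5 times of 9 under its alternatives.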
